A study of Mus musculus with 5 samples.

Results

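The JAK inhibitor tofacitinib was compared with the AKT inhibitor GSK 690693 in the same cells, with 1 array for each out of 5 arrays in the series. All 5 arrays hold RNA from primary mouse embryonic fibroblasts (MEFs) that are STING-/- and were given back STING as its R284S variant, so every group, vehicle included, lacks the endogenous gene and carries the variant. R284S is known as a gain-of-function form of this adaptor of cytosolic DNA sensing. The treatments were vehicle, Compound C, doxorubicin, GSK 690693 and tofacitinib, each for 9 hours, and no dose is stated in the labels. No label names a second culture, clone or batch, and no array of cells without the variant enters the comparison. The members are genes: of 22180 genes with a probe set that carries 1 gene symbol, 12311 were kept, because the highest of their 5 values reached the median of that array (5.37 to 5.44). All values are deposited log2 signals, and a difference is the signal with tofacitinib minus the signal with GSK 690693. Since each group is a single array, no difference has an error, a test or a replicate check.

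JAK kinases sit on cytokine receptors and phosphorylate STAT proteins. After type I interferon, a complex that holds STAT2 and IRF9 binds interferon-stimulated response elements (ISREs), while STAT homodimers such as that of STAT3, formed after IL-6 family cytokines, bind shorter palindromic sites. STING acts upstream of this loop through TBK1, IRF3 and NF-kB, which induce interferon beta and some antiviral genes without JAK. AKT acts below PI3K, where it restrains FOXO transcription factors and favours mTORC1 and lipid synthesis. GSK 690693 was developed against AKT and also inhibits AMPK, and the submitters grouped the treatments as AMPK inhibitors. Tofacitinib and GSK 690693 are not structural relatives.

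By the SD of their difference, the tofacitinib and GSK 690693 arrays lay closer together than any other pair of the 5 arrays. The SD of their difference over the 12311 genes was 0.258, while the other 9 pairs had SDs from 0.295 (tofacitinib and vehicle) to 0.657 (doxorubicin and Compound C). At least 2-fold higher with tofacitinib were 32 genes, which is 0.26% of those kept, and at least 2-fold lower were 27, or 0.219%. At the smaller step of 1.5-fold, 285 genes (2.32%) were higher than with GSK 690693 and 141 (1.15%) lower. The largest differences were 3.43-fold upward, for the chemokine gene Ccl4, and 6.02-fold downward, for the aggrecanase gene Adamts5. Just inside the 2-fold line lay C1qtnf3 at 1.0 and Trim30d at -1.01, and just outside it lay Olfm2 at 0.99 and Rnf213 and Chac1 at -0.99.

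The balance between higher and lower genes depended on the scaling of the arrays. The median difference of all genes was 0.04, and it was -0.06 when each array was centred on its own median. Centring gave 25 genes higher and 44 lower at 2-fold and 160 higher and 226 lower at 1.5-fold. Quantile normalization gave 27 higher and 35 lower at 2-fold, with 210 and 160 at 1.5-fold, and a loess on mean signal gave 215 higher and 172 lower at 1.5-fold. Of the genes at least 2-fold apart that are named below, 0 reversed under these settings. The settings moved differences too little to turn a 2-fold one, so this is no check of single genes. Small list medians are therefore set beside the median of all genes.

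**Figure D1:**
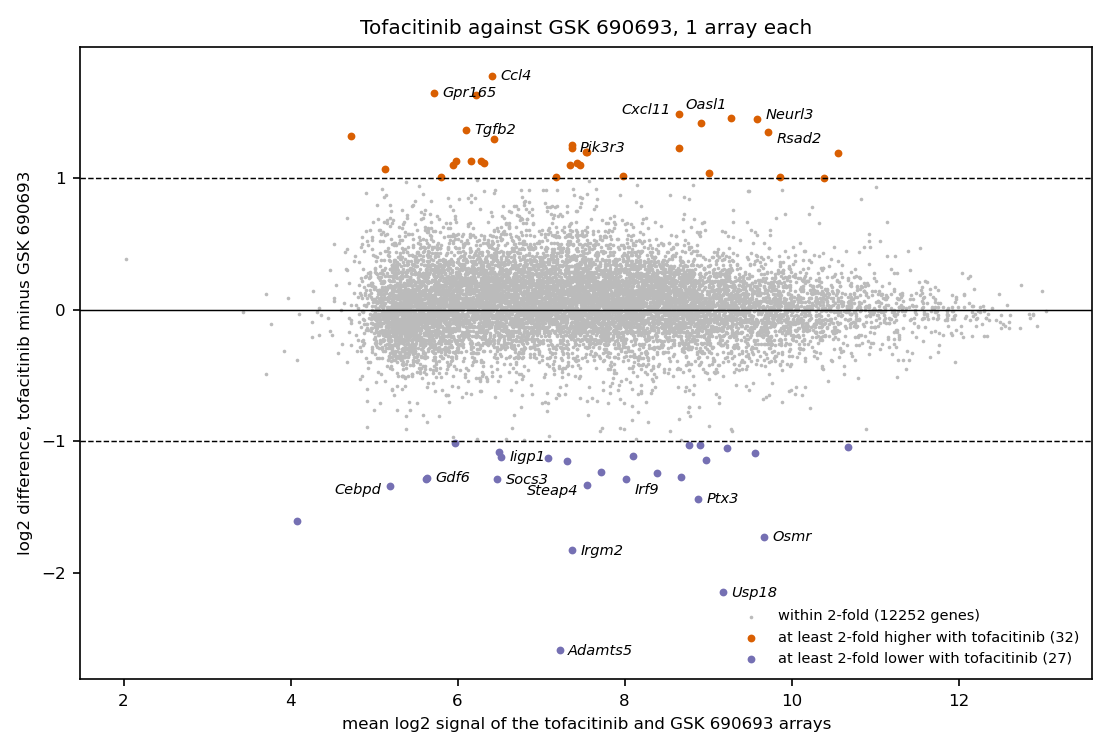
Log2 difference of each gene (vertical axis, tofacitinib minus GSK 690693) against the mean log2 signal of both arrays (horizontal axis), 1 point per gene for 12311 genes. Orange points are the 32 genes at least 2-fold higher with tofacitinib and purple points the 27 at least 2-fold lower; dashed lines mark 2-fold, and Adamts5, Usp18, Irgm2 and Osmr lie farthest below.

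The vehicle array is not used by the comparison and shows where each level lay without an inhibitor. Of the 32 genes higher with tofacitinib, the vehicle value was nearer to tofacitinib in 26 and nearer to GSK 690693 in 6, and over all genes it was nearer to tofacitinib in 47.6% and to GSK 690693 in 49.8%. Their median difference from vehicle was 0.18 with tofacitinib and -1.07 with GSK 690693. Most of these genes were thus low on the GSK 690693 array and near the vehicle level on the tofacitinib array. The 27 lower genes were mixed, with vehicle nearer to tofacitinib in 12 and nearer to GSK 690693 in 15, and their median difference from vehicle was -0.79 with tofacitinib and 0.36 with GSK 690693. The Compound C value was nearer to GSK 690693 than to tofacitinib in 28 of the 32 higher genes and in 20 of the 27 lower ones, against 56.9% of all genes, while 40.7% had it nearer to tofacitinib.

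Interferon-induced genes differed in both directions, more of them lower than higher with tofacitinib. The immunity-related and guanylate-binding GTPases, which act on the vacuoles of intracellular pathogens, were lower with tofacitinib in 9 of 10 kept members, with a median of -0.31; 3 were at least 1.5-fold lower and 0 higher. The median of 57 other antiviral effectors was -0.24: 40 were lower and 17 higher, and 12 passed 1.5-fold downward and 4 upward. Over all genes 41.5% were below 0, and 1.15% passed 1.5-fold downward and 2.32% upward. Of all 12311 genes kept, 3271 were lower than vehicle on both inhibitor arrays, and so were 62 of these 67 interferon-induced genes. Their median difference from vehicle was -0.77 with tofacitinib and -0.56 with GSK 690693, and 35.8% and 43.6% of all genes lay below vehicle.

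Irgm2, an immunity-related GTPase, had a log2 signal of 6.46 with tofacitinib and 8.29 with GSK 690693, and of 8.96 with vehicle, 7.65 with Compound C and 8.40 with doxorubicin. Its tofacitinib value was the lowest of the 5, and the difference from GSK 690693 was -1.83, or 3.56-fold. Igtp, a related GTPase, stood at 6.73 with tofacitinib, 7.88 with GSK 690693, 8.38 with vehicle, 7.81 with Compound C and 8.81 with doxorubicin, a difference of -1.15. Iigp1, the third GTPase of the list past 2-fold, read 5.96 with tofacitinib, 7.08 with GSK 690693, 8.70 with vehicle, 7.83 with Compound C and 8.53 with doxorubicin. Unlike Irgm2 and Igtp, Iigp1 was well below vehicle with both inhibitors, by -2.74 with tofacitinib and -1.62 with GSK 690693. The next members in size were Irgm1 at -0.42 and Gbp9 at -0.33, both under 1.5-fold.

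Usp18, the protease that removes ISG15 and also dampens signalling at the type I interferon receptor, was the effector with the largest downward difference. Its signal was 8.10 with tofacitinib, against 10.25 with GSK 690693, 10.87 with vehicle, 10.56 with Compound C and 10.84 with doxorubicin. The differences from vehicle were -2.77 with tofacitinib and between -0.62 and -0.03 with the other 3 compounds, and the contrast was -2.15, or 4.44-fold. Xaf1, an interferon-induced partner of the apoptosis inhibitor XIAP, stood at 7.10 with tofacitinib and 8.33 with GSK 690693, and at 8.79 with vehicle, 8.31 with Compound C and 8.63 with doxorubicin. Here too the tofacitinib array was alone at the low end. Trim30d, Parp12, Parp9, Slfn2, Zbp1, Slfn5, Eif2ak2, Trim25, Oas2 and Ifi205 made up the rest of the 12, from -1.01 for Trim30d to -0.64 for Ifi205; apart from Zbp1 they were singled out after their values were seen. They include Eif2ak2, the RNA-activated kinase PKR (8.40 with tofacitinib, 9.14 with GSK 690693, 9.76 with vehicle), and Zbp1, a sensor of Z-form nucleic acid (8.24, 9.07 and 9.67 in the same order).

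Together, the 15 GTPases and effectors at least 1.5-fold lower with tofacitinib had a median difference from vehicle of -1.65 with tofacitinib and -0.60 with GSK 690693. The 4 that were higher were Oasl1, Rsad2, Ddx60 and Cmpk2. Their median difference from vehicle was -0.39 with tofacitinib and -1.66 with GSK 690693. Both inhibitor arrays were below vehicle in 14 of the 15 and in all 4, and in 3271 of all 12311 genes. With Compound C the median difference from vehicle was -1.60 for the 4 higher genes and -0.57 for the 15 lower ones.

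Oasl1, an oligoadenylate synthetase-like protein that limits IRF7 production, read 10.00 with tofacitinib and 8.54 with GSK 690693, and 10.12 with vehicle, 8.46 with Compound C and 9.26 with doxorubicin. Rsad2, the antiviral radical-SAM enzyme viperin, read 10.39 with tofacitinib and 9.04 with GSK 690693, against 10.77, 9.38 and 10.46 with vehicle, Compound C and doxorubicin. For both genes the GSK 690693 and Compound C arrays were the low pair, and the contrasts were 1.46 and 1.35. Ddx60, a helicase of antiviral RNA sensing, followed with 7.90 against 6.80 (vehicle 8.30, Compound C 6.68, doxorubicin 8.04). Cmpk2, a mitochondrial nucleotide kinase induced with viperin and named here after its values were seen, had 9.53 against 8.49 (vehicle 10.22, Compound C 8.65, doxorubicin 10.09). Well-known effectors between these extremes differed less: Isg15, the ubiquitin-like modifier, was at 10.29 with tofacitinib and 9.98 with GSK 690693 (vehicle 10.71), and Ifit1, which binds uncapped viral RNA, at 11.32 and 10.80 (vehicle 11.61).

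**Figure D2:**
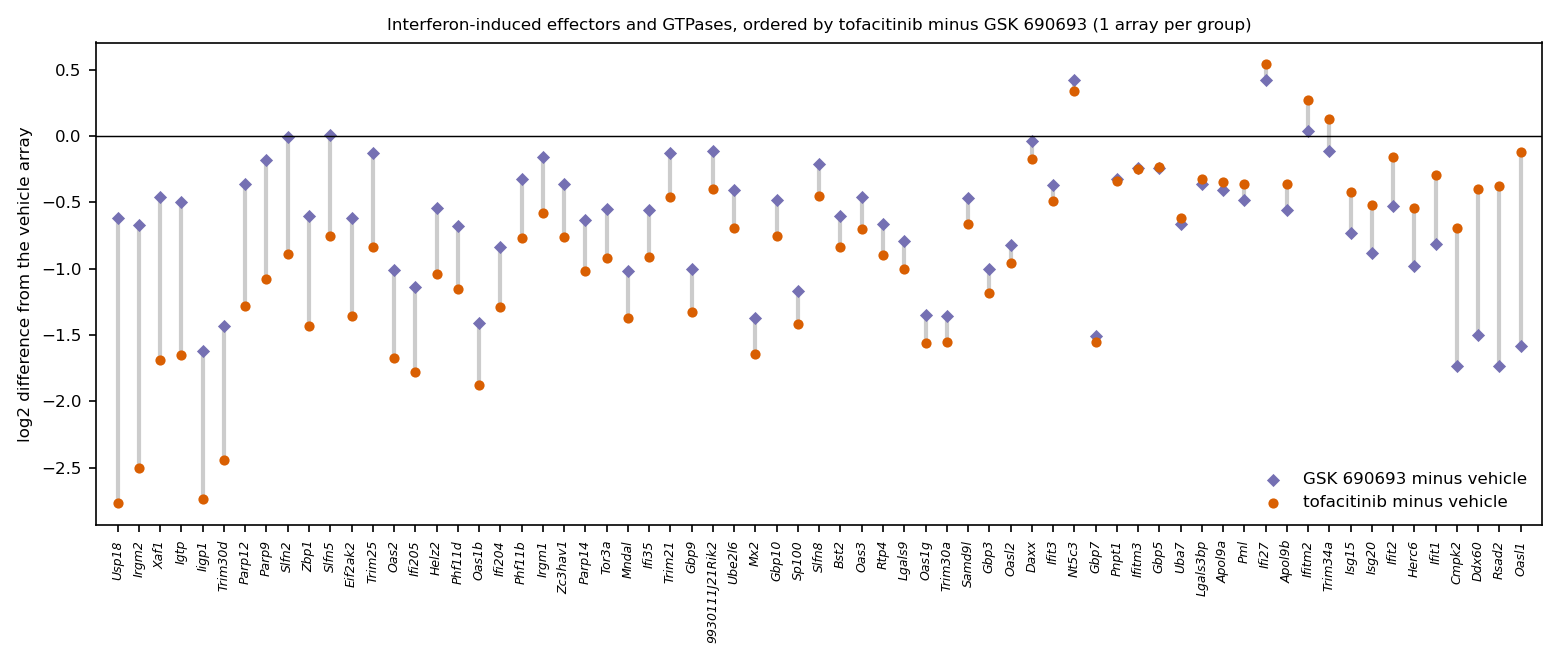
Log2 difference from the vehicle array (vertical axis) for the 67 interferon-induced effectors and GTPases kept, ordered from the most negative to the most positive contrast; orange circles are tofacitinib, purple diamonds GSK 690693, 1 array each, and grey bars join them. The orange circles lie lower on the left, from Usp18 onward, and higher on the right, ending with Cmpk2, Ddx60, Rsad2 and Oasl1, and 62 of the genes lie below the vehicle line on both arrays.

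The promoters of these genes are shown because members of both directions carry the same kind of element. The sequences are RefSeq's for GRCm38.p6, the 250 bases before the start, 5′ to 3′ on the strand of the gene; capitals mark matches to the ISRE letters (GAAA, any 2 bases, GAAA) and to the STAT homodimer letters TTCNNNGAA, searched on both strands. They lie at chr11:58214727-58214976 on the plus strand for Irgm2, chr11:58199306-58199555 (plus) for Igtp, chr11:117969367-117969616 (minus) for Socs3, chr5:7960222-7960471 (plus) for Steap4, chr12:26456453-26456702 (minus) for Rsad2 and chr8:61927837-61928086 (plus) for Ddx60. The first 4 genes were lower with tofacitinib than with GSK 690693 and the last 2 higher.
Irgm2: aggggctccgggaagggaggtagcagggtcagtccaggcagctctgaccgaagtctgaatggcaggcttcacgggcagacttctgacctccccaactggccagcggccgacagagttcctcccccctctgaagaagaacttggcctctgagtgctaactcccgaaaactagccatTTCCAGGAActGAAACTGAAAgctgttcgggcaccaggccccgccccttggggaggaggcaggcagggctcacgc
Igtp: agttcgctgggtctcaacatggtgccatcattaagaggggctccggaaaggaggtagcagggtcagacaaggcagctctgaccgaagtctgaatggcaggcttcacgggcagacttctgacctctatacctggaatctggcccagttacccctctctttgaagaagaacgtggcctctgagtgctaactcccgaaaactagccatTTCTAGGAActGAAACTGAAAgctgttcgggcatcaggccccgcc
Socs3: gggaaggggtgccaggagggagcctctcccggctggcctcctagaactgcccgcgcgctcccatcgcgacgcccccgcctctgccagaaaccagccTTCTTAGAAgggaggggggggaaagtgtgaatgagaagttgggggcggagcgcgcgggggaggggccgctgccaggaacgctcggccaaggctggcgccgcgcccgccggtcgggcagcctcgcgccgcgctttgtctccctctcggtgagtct
Steap4: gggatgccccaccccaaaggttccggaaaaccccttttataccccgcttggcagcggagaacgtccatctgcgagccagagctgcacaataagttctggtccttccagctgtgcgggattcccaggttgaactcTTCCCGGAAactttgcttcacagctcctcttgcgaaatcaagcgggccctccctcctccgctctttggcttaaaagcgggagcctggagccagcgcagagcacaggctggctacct
Rsad2: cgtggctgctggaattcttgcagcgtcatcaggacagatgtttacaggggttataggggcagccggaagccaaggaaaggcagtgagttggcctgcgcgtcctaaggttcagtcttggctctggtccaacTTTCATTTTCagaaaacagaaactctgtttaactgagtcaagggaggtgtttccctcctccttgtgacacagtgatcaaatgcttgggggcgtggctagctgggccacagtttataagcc
Ddx60: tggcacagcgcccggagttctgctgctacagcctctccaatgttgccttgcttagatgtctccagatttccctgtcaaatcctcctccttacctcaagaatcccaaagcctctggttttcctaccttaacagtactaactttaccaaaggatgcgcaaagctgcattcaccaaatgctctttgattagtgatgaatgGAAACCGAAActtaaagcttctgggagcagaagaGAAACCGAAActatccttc

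In Irgm2 the STAT match TTCCAGGAA began 75 bases before the start and the ISRE match GAAACTGAAA 64 bases before it, and Igtp held the same ISRE letters at 34 bases behind a STAT match TTCTAGGAA at 45. Rsad2 had an ISRE match on the opposite strand, read here as TTTCATTTTC from 120 bases before the start, and Ddx60 had GAAACCGAAA at 53 and again at 19. Socs3 and Steap4 had a STAT match, 154 and 116 bases before the start, and no ISRE match in this window. A promoter was listed for 9698 of the 12311 genes, and 2.57% of those held the ISRE letters and 5.76% the STAT letters. The ISRE letters were in 3 of the 16 lower genes with a promoter listed (18.8%: Igtp, Irgm2 and Trim30d) and in 2 of the 25 higher ones (8%: Ddx60 and Rsad2). The STAT letters were in 6 of the 16 lower genes (37.5%: Amot, Igtp, Irgm2, S100a7a, Socs3 and Steap4) and in 0 of the 25 higher ones. Among the interferon-induced genes, 5 of 10 at least 1.5-fold lower and 2 of 4 at least 1.5-fold higher held the ISRE letters. The windows of Irgm2 and Igtp share long stretches around their matches, so the counts of lower genes that hold both are not of unrelated promoters. Of the 33 promoters with both kinds of letters, the matches overlapped in 8. The forkhead letters GTAAACA were in 2.12% of all promoters, in 0 of 16 and 1 of 25 (Rsad2), and the sterol element letters TCACNCCAC in 1.04% and in none of either group. These are letter matches in single windows and were not tested as binding sites.

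Among the JAK-STAT components themselves, the cytokine receptor subunit Osmr and the STAT partner Irf9 were the ones past 2-fold, both lower with tofacitinib. The median of the 26 members kept was -0.14, with 21 lower and 5 higher, and 5 passed 1.5-fold downward and 0 upward, where 41.5% of all genes were lower and 1.15% passed 1.5-fold downward. Osmr, the oncostatin M receptor chain, read 8.80 with tofacitinib, against 10.53 with GSK 690693, 10.67 with vehicle, 10.50 with Compound C and 10.72 with doxorubicin. The 4 other arrays lay between 10.50 and 10.72, and the contrast was -1.73, or 3.32-fold. Irf9, the DNA-binding partner of STAT2, was at 7.37 with tofacitinib, 8.66 with GSK 690693, 8.98 with vehicle, 8.26 with Compound C and 8.07 with doxorubicin. Stat2 followed with 8.82 against 9.73 (vehicle 10.04), Stat3 with 9.84 against 10.59 (vehicle 10.49) and Il4ra, the IL-4 receptor chain, with 8.07 against 8.66 (vehicle 8.18). The kinase genes differed little: Jak1 by -0.20, Jak2 by 0.20 and Tyk2 by 0.12, and so did the interferon receptor chains Ifnar1 (-0.05) and Ifnar2 (-0.15). Irf7, the interferon-inducible amplifier, was at 9.39 with tofacitinib and 9.68 with GSK 690693.

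The feedback inhibitors and STAT3 targets were lower with tofacitinib where they differed most. Of 32 members, 9 were at least 1.5-fold lower and 0 higher, against 1.15% and 2.32% of all genes. The median was -0.12, with 21 below 0 and 9 above, where 41.5% and 56.6% of all genes were. Socs3, the feedback inhibitor of gp130 signalling, had 5.83 with tofacitinib, 7.12 with GSK 690693, 6.91 with vehicle, 7.44 with Compound C and 6.01 with doxorubicin. Steap4, a metalloreductase, had 6.88 with tofacitinib, 8.21 with GSK 690693, 8.58 with vehicle, 9.25 with Compound C and 9.76 with doxorubicin. In both genes tofacitinib was the lowest array, but for Socs3 doxorubicin was close to it. Cebpd, a C/EBP transcription factor of the acute-phase response, had 4.52 with tofacitinib, 5.86 with GSK 690693, 5.59 with vehicle, 7.19 with Compound C and 4.36 with doxorubicin, so its contrast of -1.34 rests on dim values.

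Pim1, a serine/threonine kinase induced by STATs, was arranged differently: 8.40 with tofacitinib and 8.64 with vehicle, against 9.54 with GSK 690693 and 9.50 with Compound C, and 7.07 with doxorubicin. The high arrays were GSK 690693 and Compound C, and tofacitinib lay near vehicle. The remaining members past 1.5-fold were Osmr, Bcl3 (-0.71), Pim3 (-0.65), Cebpb (-0.64) and Il4ra; Pim3 was singled out after its value was seen. Vehicle was nearer to GSK 690693 in 5 of the 9 and nearer to tofacitinib in 4. Other SOCS genes differed less, among them Socs2 (-0.55) and Cish (-0.35), an inhibitor family member known as a STAT5 target, with Socs1 at -0.23.

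Of 29 chemokine and cytokine genes, 5 were at least 1.5-fold higher with tofacitinib and 0 lower, against 2.32% and 1.15% of all genes. The list as a whole lay near the background, with 19 higher and 10 lower where 56.6% of all genes were higher. Its median was 0.14, and with centred arrays it was 0.04, with 16 of 29 higher. Ccl4, a chemokine that attracts leukocytes, read 7.30 with tofacitinib and 5.52 with GSK 690693, and 6.94 with vehicle, 5.67 with Compound C and 5.90 with doxorubicin. Its tofacitinib and vehicle arrays were the high pair, and the contrast of 1.78 was the largest upward of all 12311 genes. Cxcl11, an interferon-inducible ligand of CXCR3, read 9.39 with tofacitinib and 7.90 with GSK 690693, and 9.52, 9.19 and 9.12 with vehicle, Compound C and doxorubicin. In this gene the GSK 690693 array alone was low. Cx3cl1, the membrane-anchored chemokine fractalkine, had 8.15 against 6.95 (vehicle 7.48, Compound C 7.01, doxorubicin 8.03). Ccl3 (5.87 against 4.90) and Ccl9 (7.48 against 6.57) completed the 5, and for all but Cx3cl1 vehicle was nearer to tofacitinib.

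Other inflammatory transcripts were close on both arrays. Ccl5 was at 13.07 with tofacitinib and 12.93 with GSK 690693 (vehicle 12.96), and Cxcl10 at 12.26 and 12.0 (vehicle 12.47). Il6, which encodes the founding cytokine of the gp130 family, was at 8.52 with tofacitinib and 8.43 with GSK 690693, and both were below the vehicle value of 9.45, the Compound C value of 9.13 and the doxorubicin value of 9.41. Ifnb1 read 2.84 and 2.79, below the filter on dim genes, and was 2.86 with vehicle. The probe set of Sting1 was dim on all 5 arrays, from 5.07 to 5.25, and did not pass the filter; whether it reads the reconstituted variant is not stated in the labels.

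Sensors and NF-kB genes showed no common direction. The 26 sensor and STING pathway genes were evenly divided, 13 higher and 13 lower (median 0.03), and 3 passed 1.5-fold: Ifih1 upward, Rnaseh2b, a subunit of RNase H2, upward at 0.59, and Zbp1 downward at -0.83. Ifih1, the sensor MDA5 of long duplex RNA, read 11.48 with tofacitinib and 10.55 with GSK 690693 (vehicle 11.40, Compound C 10.74, doxorubicin 11.28). Like Oasl1 and Rsad2, Ifih1 was low on the GSK 690693 and Compound C arrays. Of 33 NF-kB subunits, inhibitors and targets, 2 were at least 1.5-fold higher, the costimulatory ligand Cd80 (8.02 against 7.25) and the gelatinase Mmp9 (9.28 against 8.61), and 2 lower, Ptx3 and Bcl3. Ptx3, a secreted pentraxin of innate immunity, had 8.16 with tofacitinib, 9.60 with GSK 690693, 8.56 with vehicle, 9.15 with Compound C and 8.87 with doxorubicin. Its highest array was GSK 690693, and the contrast was -1.44. In the MHC class I list, 1 of 20 members passed 1.5-fold, H2-T10 at 0.66, and the median was -0.01. Over all genes 56.6% were higher and 41.5% lower, and 2.32% passed 1.5-fold upward and 1.15% downward.

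Genes near AKT and its FOXO branch differed in a few members only. The kinase genes were level: Akt1 by 0.04 and Akt2 by 0.16. Irs2, the insulin receptor substrate known as a FOXO target, read 6.52 with tofacitinib and 7.65 with GSK 690693, and 7.05 with vehicle, 8.01 with Compound C and 5.85 with doxorubicin. Vehicle lay between both arrays and closer to tofacitinib. Sgk1, a kinase related to AKT, had 8.52 with tofacitinib and 9.26 with GSK 690693 (vehicle 8.59), and Pik3cb, a catalytic PI3K subunit, 8.0 and 8.63 (vehicle 7.74). Pik3r3, a regulatory PI3K subunit, went the other way with 7.98 against 6.75, where vehicle was at 7.39. The pathway list of PI3K, AKT and mTOR genes was evenly divided too, 16 of 32 each way (median 0.01). Of all genes 56.6% were higher and 41.5% lower. At 1.5-fold 3 members of the list were lower and 1 higher, against 1.15% and 2.32% of all genes.

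In the FOXO list of 39 factors and targets, 26 were lower with tofacitinib and 13 higher, with a median of -0.16, where 41.5% of all genes were lower. At 1.5-fold, 2 members were lower and 1 higher, against 1.15% and 2.32% of all genes. The first were Irs2 and Pdk4, the pyruvate dehydrogenase kinase, which read 7.51 with tofacitinib, 8.14 with GSK 690693 and 7.28 with vehicle. Fbxo32, the ubiquitin ligase atrogin-1, was similar at 7.75, 8.28 and 7.53. Trib2, a pseudokinase, was the member past 1.5-fold upward, at 7.84 with tofacitinib, 6.92 with GSK 690693 and 7.45 with vehicle. The factors Foxo1 (-0.45) and Foxo3 (-0.05) did not reach 1.5-fold.

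The catalytic AMPK subunits differed little, with Prkaa1 at 10.50 and 10.52 and Prkaa2 at 6.86 and 6.99, and the beta subunit Prkab2 was at 8.04 with tofacitinib and 7.55 with GSK 690693, a difference of 0.49. The AMPK and energy stress list of 27 genes had a median of -0.02, and 2 members passed 1.5-fold, both lower with tofacitinib: Fnip2 (7.24 against 8.16, vehicle 7.16, Compound C 8.42) and Fnip1 (8.41 against 9.03, vehicle 8.48, Compound C 9.30), the folliculin-interacting proteins of lysosomal nutrient sensing. For both genes tofacitinib lay near vehicle while the GSK 690693 and Compound C arrays were high. Over all genes 41.5% were lower and 1.15% at least 1.5-fold lower. Of 31 sterol and fatty acid synthesis genes 20 were lower (median -0.13), and 1 passed 1.5-fold. It was Insig1, which retains the SREBP precursor in the endoplasmic reticulum, with 9.53 against 10.23 (vehicle 9.21, Compound C 10.89, doxorubicin 8.69).

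Among the genes lower with tofacitinib were several that the GSK 690693 array alone held high. Adamts5, which cleaves aggrecan, read 5.93 with tofacitinib and 8.52 with GSK 690693, and 6.07 with vehicle, 6.69 with Compound C and 6.51 with doxorubicin. The 4 other arrays lay between 5.93 and 6.69, and GSK 690693 was 2.45 above vehicle. Amot, angiomotin, a partner of YAP, was at 8.04 with tofacitinib, 9.31 with GSK 690693, 7.65 with vehicle, 7.84 with Compound C and 8.11 with doxorubicin. Gdf6, a BMP family ligand, was at 4.99 with tofacitinib and 6.27 with GSK 690693, with 4.96, 5.20 and 5.47 on the vehicle, Compound C and doxorubicin arrays. Both genes repeat the pattern of Adamts5 at smaller size, and Gdf6 was dim on all arrays but 1. Foxf1, a mesenchymal forkhead factor named after its values were seen, had 8.26 against 9.29 (vehicle 8.37). Hmox1, heme oxygenase, differed from these genes, as its highest array was Compound C. It had 10.15 with tofacitinib against 11.19 with GSK 690693 (vehicle 10.48, Compound C 11.59).

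The other lower genes lay on both sides of vehicle or had less even support. Akr1c18, a steroid dehydrogenase that inactivates progesterone, read 7.77 with tofacitinib and 9.01 with GSK 690693, with vehicle at 8.58. Eps8, an actin and growth factor receptor adaptor, read 7.54 and 8.65 with vehicle at 8.01, and Crct1 4.98 and 6.27 with vehicle at 5.36. Vehicle lay between both arrays in each of these. Myl12a, a myosin regulatory light chain, read 9.01 and 10.10, and its second probe set, at 6.16 and 6.22, did not share the difference. A further probe set of Socs3 gave -0.71 at dim signals of 3.41 and 4.12, and that of Pim1 gave -0.24 at 5.09 and 5.33.

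Beside those of the interferon and chemokine groups, the genes higher with tofacitinib had varied roles. Neurl3, a ubiquitin ligase, read 10.31 with tofacitinib and 8.86 with GSK 690693, and 9.91, 8.72 and 9.57 with vehicle, Compound C and doxorubicin. Tgfb2, a TGF-beta ligand, read 6.78 and 5.41, with 6.66, 5.90 and 6.56 on the other arrays in that order. Htr1b, a serotonin receptor, read 11.15 and 9.96, with 11.32, 9.87 and 10.72. In all 3 the GSK 690693 and Compound C arrays were the low ones. Sytl2 (8.0 against 6.75) and Sytl5 (8.14 against 6.94) encode synaptotagmin-like partners of RAB27, and vehicle was nearer to tofacitinib for both, at 7.74 and 8.48.

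Gpr165, an orphan receptor gene, had 6.54 with tofacitinib and 4.89 with GSK 690693 (vehicle 6.41), and Tmtc2, a mannosyltransferase of the endoplasmic reticulum, 7.08 and 5.78 (vehicle 6.93). The neurotensin gene Nts was dim, at 5.38 and 4.06 (vehicle 5.24), and passed the filter only through the tofacitinib array. Galnt18, a glycosyltransferase of O-linked glycosylation, had 9.26 and 8.03, and Gabra4, a GABA receptor subunit, 6.72 and 5.59. Tspan18, a tetraspanin, had 6.55 and 5.42 (vehicle 6.95) and Ccdc122 6.84 and 5.71 (vehicle 6.49). The values of 2 others were not shared by their further probe sets: Prnd, the prion-like protein doppel, at 9.63 and 8.21, gave 0.10 on a second probe set, and Trav9d-3, a T cell receptor variable segment, at 7.04 and 5.41, gave values from -0.71 to 0.14 on 4 others.

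**Figure D3:**
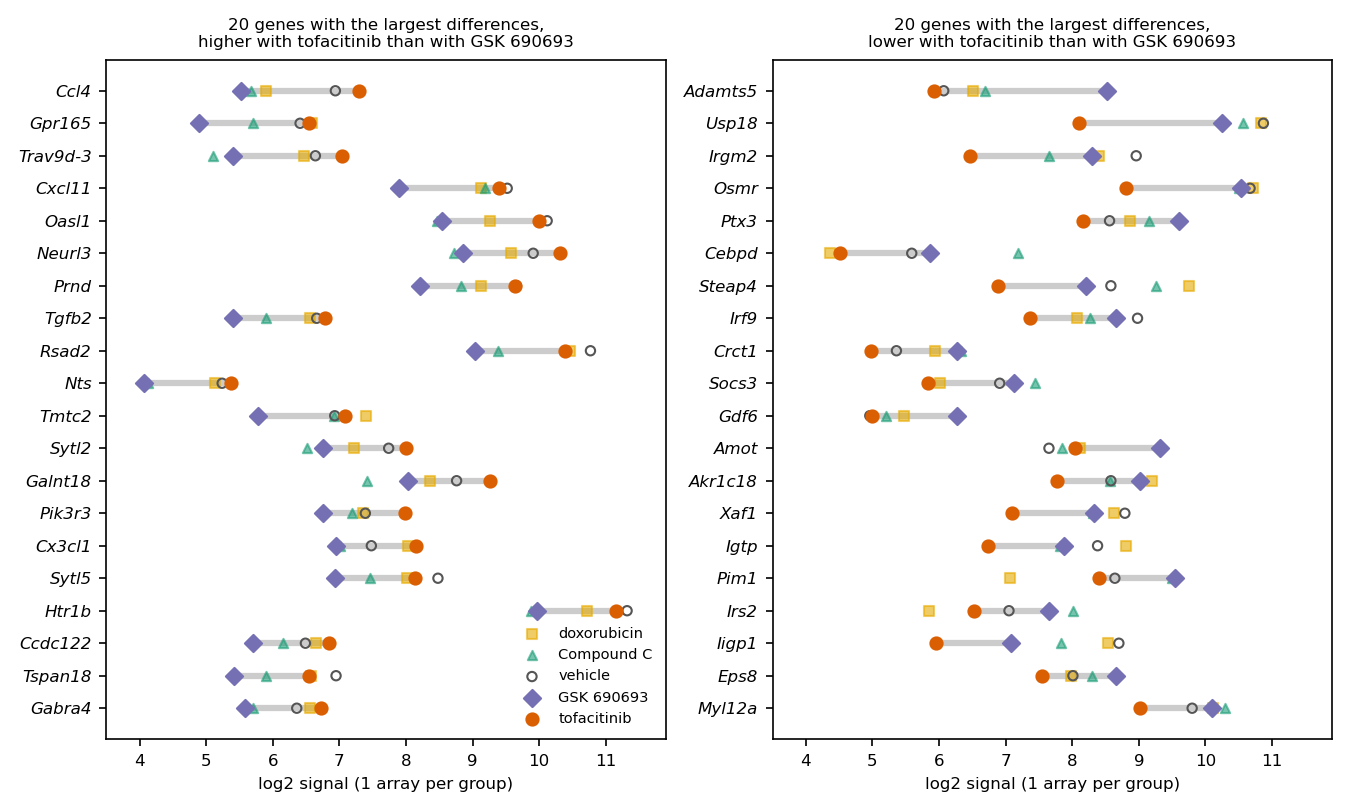
Log2 signal on each of the 5 arrays (horizontal axis, 1 array per group) for the 20 genes with the largest differences each way among those at least 2-fold apart; grey bars join GSK 690693 (purple diamonds) and tofacitinib (orange circles). In the left panel the vehicle circles mostly lie near tofacitinib and the Compound C triangles near GSK 690693. In the right panel Usp18 and Osmr are low with tofacitinib alone, and Adamts5 and Amot are high with GSK 690693 alone. Irgm2 is lowest with tofacitinib and also below vehicle with Compound C.

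Cell cycle genes were higher with tofacitinib by small, even steps. Of 62 mitosis genes 57 were higher and 5 lower, with a median of 0.31, and 3 reached 1.5-fold: Spc25 (7.86 against 7.23), Cenpa (7.16 against 6.55) and Cdc20 (8.15 against 7.55), which serve the kinetochore, the centromere and the anaphase-promoting complex. Of 55 DNA replication and E2F target genes 51 were higher, with a median of 0.21, and Rpa3 (7.68 against 6.94) and Brca2 (5.94 against 5.35) reached 1.5-fold; a second probe set of Rpa3 gave 0.11. Over all genes 56.6% were higher, 2.32% by at least 1.5-fold, and the median was 0.04. Relative to vehicle, the mitosis list stood at a median of 0.27 with tofacitinib and 0.00 with GSK 690693, with 55 and 30 of its genes above vehicle. The replication list stood at 0.36 and 0.08, with 52 and 37 above vehicle, where 62.7% and 55.2% of all genes were. With arrays centred on their medians, the list medians were 0.21 for mitosis and 0.11 for replication, 51 of 62 and 40 of 55 genes were higher, and 0 and 1 reached 1.5-fold.

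Of 24 G1 regulators 17 were higher, with a median of 0.14. Ccne1, cyclin E1, had 9.04 with tofacitinib, 8.35 with GSK 690693 and 8.44 with vehicle, whereas the CDK inhibitor gene Cdkn1b, a known FOXO target, had 7.02, 7.47 and 6.84. Cyclin E1 was thus highest with tofacitinib and Cdkn1b higher with GSK 690693, both under 2-fold. In the p53 list 24 of 29 genes were higher, where 56.6% of all genes were, with a median of 0.18. At 1.5-fold 3 were higher, the antiproliferative gene Btg2 (8.21 against 7.54, vehicle 8.15), the death receptor Eda2r (8.41 against 7.78, vehicle 8.49) and Pidd1 (7.48 against 6.89), and 1 was lower, the kinase Plk3 (7.28 against 7.87). With centred arrays 20 of 29 were higher, the median was 0.08, and 0 were 1.5-fold higher and 1 lower. Respiratory chain and ATP synthase genes were higher in 49 of 60, with a median of 0.12, or 0.02 with centred arrays. The 2 members past 1.5-fold were lower, Atp5d (-0.84) and Atp5g1 (-0.70), and a second probe set of Atp5d gave 0.18.

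Growth factor and matrix genes split. In the BMP and TGF-beta list 4 of 30 were at least 1.5-fold higher with tofacitinib, Tgfb2, Bmp2 (7.70 against 6.91, vehicle 7.94), the pseudoreceptor Bambi (7.5 against 6.72, vehicle 7.19) and Tgfb1 (9.47 against 8.87, vehicle 9.60), and Gdf6 was lower, where 2.32% of all genes were higher and 1.15% lower at that step. All 4 were low on the GSK 690693 array relative to vehicle. Among 40 matrix genes, Col6a3 (7.49 against 6.79) and the hyaluronan synthase Has2 (9.82 against 9.21) were at least 1.5-fold higher and Adamts5 and Adamts1 (6.73 against 7.44) lower. Of 47 immediate early and ERK feedback genes 19 were higher and 28 lower, where 56.6% and 41.5% of all genes were. At 1.5-fold 3 were higher, led by the orphan receptor Nr4a1 (8.54 against 7.72), and 3 lower, led by the phosphatase Dusp5 (7.86 against 8.71), and with centred arrays 1 was higher and 5 lower. In the list of 30 YAP and SRF targets, Tgfb2 and the smooth muscle gene Cnn1 (10.63 against 9.85) were at least 1.5-fold higher and Amot lower.

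Stress and biosynthesis lists lay near the median of all genes. The unfolded protein response list (26 genes, median 0.05) and the ribosome biogenesis list (52 genes, -0.06) had 0 members past 1.5-fold either way. The ATF4 list (38 genes, -0.02) had 2 members at least 1.5-fold lower and 1 higher. Lower were Chac1, a glutathione-degrading enzyme, at 6.30 with tofacitinib and 7.29 with GSK 690693 (vehicle 6.28), and Cebpb at 7.84 and 8.48 (vehicle 8.12). Atf3 was higher, at 7.69 and 7.03 (vehicle 7.82). The lysosome list (51 genes, -0.06), the glycolysis list (32 genes, -0.04), the ribosomal protein list (47 genes, -0.03) and the NRF2 list (21 genes, -0.08) each had 2 or fewer members past 1.5-fold. Of 16 heat shock genes 8 were higher, and 2 passed 1.5-fold upward (1 with centred arrays). These were the inducible chaperone Hspa1b (9.29 against 8.34) and Dnajb4 (6.45 against 5.80). Among all genes 56.6% were higher, and 2.32% passed 1.5-fold upward and 1.15% downward. The constitutive chaperone gene Hspa8 was at -0.20 on the probe set with its highest mean and at -1.02 to -1.30 on 3 others, so its probe sets disagree.

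**Figure D4:**
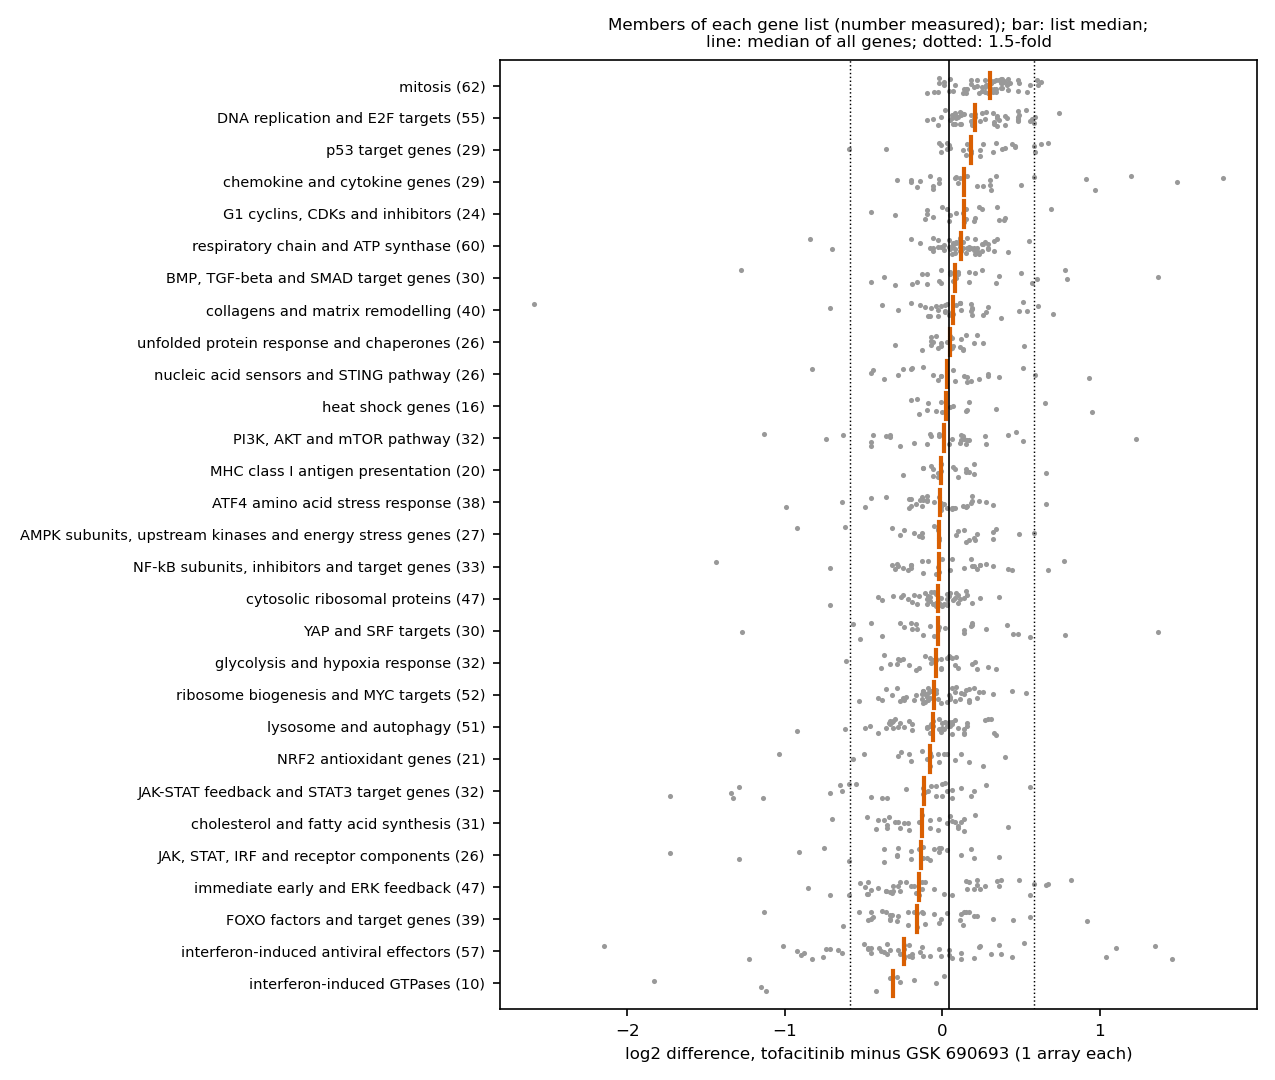
Log2 difference, tofacitinib minus GSK 690693 (horizontal axis), of every kept member of 29 gene lists, 1 grey point per gene and 1 array per group, with the number of members in brackets. Orange bars are list medians, from -0.31 for interferon-induced GTPases to 0.31 for mitosis, the solid line is the median of all genes (0.04) and dotted lines mark 1.5-fold.

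Markers of the labelled cell type passed the filter on dim genes, which uses the highest of the 5 arrays. All 12 fibroblast markers passed it, with a median signal of 10.11 with tofacitinib and 10.23 with GSK 690693, and 0 of them differed by 1.5-fold. Fap passed through other arrays. It read 5.28 with tofacitinib and 5.31 with GSK 690693, below the medians of those arrays (5.37 and 5.38). Of the markers of other cell types, 0 of 7 for T or B cells, 3 of 9 for macrophages, 2 of 7 for endothelium, 4 of 6 for epithelium, 3 of 6 for neural cells, 4 of 6 for muscle and 1 of 4 for pluripotent cells passed. Their median signals with tofacitinib lay between 4.13 and 5.33 per list and with GSK 690693 between 4.17 and 5.34; levels of different probe sets are not comparable, and their part in the results was not tested. The macrophage gene Csf1r was at 4.92 with tofacitinib and 5.52 with GSK 690693 (vehicle 4.93), while Cd68 was at 6.69 and 6.65. Csf1r passed the filter only through the GSK 690693 array, and its values on the other arrays, up to 5.27, were below their medians. In RNA from whole cultures, fewer cells of a type and less RNA per cell cannot be told apart. The median signal of the kept genes was 7.39 with tofacitinib, 7.29 with GSK 690693 and 7.22 with vehicle.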

How the data were processed

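RNA (300 ng per sample) was labelled and hybridised to 1 Affymetrix whole-transcript array per group, per the labels. The values the authors deposited are log2 signals of single probe sets, made with Affymetrix Expression Console 1.3.1.187, per the submitters' processing notes. No source used here gives the summarisation or normalization, and the log base was inferred from the range of the values (1.05 to 13.18). A quantile step, if used, would hide a shift of most genes one way. Detection calls were not used, so differences between dim values may be understated.

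Of 41345 probe sets, 23521 had 1 symbol in the platform annotation, 1814 several and 16010 none listed; 0 value columns were unused. The 1082 genes with several single-symbol probe sets were represented by the one with the highest mean. Genes were kept where the highest of the 5 values reached that array's median, which left 12311 of 22180 (55.5%); 241 lay within 0.05 inside that limit and 187 within 0.05 outside it. Differences were computed with pandas 2.3.3 in Python 3.11.15, and fold changes are powers of 2 of a log2 difference. With 1 array per group no test was run. The number of arrays limits the precision.

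Genes were counted at 2-fold and list members at 1.5-fold (0.585 on the log2 scale). Named are the 20 largest differences each way among the 2-fold genes, leaving out small RNA genes and undescriptive symbols, from each list the 5 members farthest from 0, and a fixed set of pathway genes. Of 1235 list symbols, 1130 were matched, and 29 lists describe programmes and 8 mark cell types. The comparison, the lists and the rule were chosen with earlier results of these data known. Promoters came from RefSeq (GRCm38.p6) and were matched to the kept genes by Entrez ID. The 50 bases after the start were left out. The counting was tested on simulated data. Alternatives were 3 other scalings, 3 other filters and the mean over probe sets.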

Additional observations from a re-analysis of the deposited data

How the results depend on the processing

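All values rest on single arrays, so none has a replicate check, and how far dim signals lie above background is unknown. No paired analysis was possible because each group has 1 array. At 2-fold, the main counts were 32 higher and 27 lower; centring each array on its median gave 44 lower, and a filter at the 75th percentile gave 20 higher. The other scalings, filters and the probe set mean kept both counts within 1.5 times. Of the 59 genes at 2-fold, 52 were shared with centring, 53 with quantile normalization, 56 with loess, 59 without a filter, 42 with the 75th percentile filter, which tests fewer genes, 51 with both arrays above their medians and 54 with the probe set mean. Among 192 named genes none reversed among those called. The scalings moved differences little and the filters left them unchanged, so these settings could hardly turn a sign. Centring brought Stat2, Fnip2 and Chac1 past 2-fold, quantile normalization Fnip2 and Chac1 and loess Chac1, while Prnd, Pim1 and Myl12a fell short with the probe set mean.

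Centring moves every difference by the same amount. It gave list medians of -0.34 for interferon-induced effectors, -0.41 for the GTPases, -0.07 for sensors, -0.215 for JAK-STAT feedback genes, 0.04 for chemokines, -0.11 for MHC class I, -0.26 for FOXO, -0.23 for sterol synthesis, -0.05 for the unfolded protein response, -0.075 for heat shock, -0.16 for lysosome, -0.155 for ribosome biogenesis, -0.13 for ribosomal proteins, -0.14 for glycolysis, 0.035 for G1 regulators, -0.25 for immediate early genes, -0.13 for YAP and SRF targets, -0.035 for matrix and -0.02 for BMP and TGF-beta genes. It also turned the PI3K, AKT and mTOR median to -0.09, and the MHC class I median was 0.019 with quantile normalization and 0.005 with loess. The signs of these 2 medians and of the sensor, unfolded protein response, heat shock, matrix and BMP medians thus depend on the scaling. The 75th percentile filter, which left 20 of 32 JAK-STAT feedback genes, gave -0.25 for that list. The mitosis median ranged from 0.205 to 0.31 and the replication median from 0.11 to 0.21 over all settings.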

Other observations

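Probe sets without a gene in the annotation differed more often than genes did. Of 16010 such probe sets 4845 passed the filter, and 60 were at least 2-fold higher and 56 lower with tofacitinib, which is 2.39% together, with an SD of the difference of 0.385. Of 1814 probe sets that carry several symbols 912 passed, with 0 higher and 6 lower (0.658%) and an SD of 0.259. The genes analysed in the report had 0.479% and an SD of 0.258. What the unlisted probe sets measure is not given in the sources used here.

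Among the genes at least 2-fold lower with tofacitinib were 2 outside the naming rule, the undescriptive F830016B08Rik, which read 3.27 with tofacitinib, 4.88 with GSK 690693 and 6.28 with vehicle, and the small nucleolar RNA gene Snord13, which read 8.39, 9.42 and 9.06. The first had the lowest signal with tofacitinib of all 27, below the filter medians on both compared arrays.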
